A study of Mus musculus with 9 samples.

Results

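The genes followed here present peptides on MHC class I molecules and make the immunoproteasome that cuts many of those peptides. They are the 10 rows of the deposited expression table named H2-K1, H2-D1, B2m, Tap1, Tap2, Tapbp, Nlrc5, Psmb8, Psmb9 and Psmb10, of 55536 gene rows in all, and the rule that picks them uses names only. Their RNA levels were read in 9 bulk libraries of mouse acute myeloid leukemia cells. In all of them, c-kit+ marrow cells had been given the MLL-AF9 fusion and GFP by an MSCV retrovirus. GFP+ leukemia cells then grew without irradiation in C57BL/6J mice aged 6 to 8 weeks at transplantation, and cells were sorted from bone marrow at day 18. Each of 3 groups held 3 libraries. One was AML-WT-c-kit-, another AML-WT-c-kit+, and the third, labelled AML-IRF7-/--c-kit+, is called the labelled libraries below. The wild-type groups had intact Irf7 and differed in surface c-kit. Those of the third group were c-kit+ cells of a leukemia begun in IRF7-/- marrow of the same strain background, in which a PGK-beta-geo cassette replaced exons of Irf7. There was no c-kit- group of that genotype. GEO's labels do not say whether the replicates were separate mice or cultures, so every p-value measures only the spread between these libraries, which may be technical.

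MHC class I molecules show fragments of a cell's own proteins to CD8+ T cells. Each consists of a heavy chain, here H2-K1 or H2-D1, bound to beta-2 microglobulin, the product of B2m. Peptides are cut by the proteasome, carried into the endoplasmic reticulum by the pump made of TAP1 and TAP2, and loaded with the help of tapasin, encoded by Tapbp. Interferon exchanges the catalytic subunits PSMB5, PSMB6 and PSMB7 of the proteasome for PSMB8, PSMB9 and PSMB10, which gives the immunoproteasome. NLRC5 is the transactivator that acts on class I promoters. Most blood cells, those of the myeloid lineage included, express class I.

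Of the 10 genes, 7 lie on chromosome 17 in the MHC region. In GENCODE M21 on GRCm38, Psmb9 (chr17:34181987-34187764, reverse strand), Tap1 (chr17:34187553-34197225, forward), Psmb8 (chr17:34197721-34201454, forward) and Tap2 (chr17:34203527-34216321, forward) follow one another. Psmb9 and Tap1 run in opposite directions and share 212 exonic bases at their 5′ ends. Tapbp (chr17:33915899-33929292, forward) and H2-K1 (chr17:33996017-34000347, reverse) lie on one side of this block, and H2-D1 (chr17:35262730-35267499, forward) on the other. The remaining genes are B2m (chr2:122147686-122153083, forward), Nlrc5 (chr8:94434356-94527272, forward) and Psmb10 (chr8:105935735-105938444, reverse). The library kit named in the labels does not keep strand, so reads from the shared bases of Psmb9 and Tap1 cannot be assigned to either gene by strand. H2-K1 and H2-D1 are near-identical in stretches to each other and to other class I heavy chain genes. How the quantification divided such reads is not given in the sources used here, and the heavy chain values are uncertain to that extent.

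The promoters of H2-K1 and B2m are shown because the members were higher together in one comparison and these stretches hold letters known from class I promoters. The sequences are RefSeq's, build GRCm38.p6, where 8 of the 10 genes had an entry and Tap2 and Nlrc5 had none. They run 5′ to 3′ on the gene's strand. Capitals mark the NF-kappaB consensus, the interferon regulatory factor core AANNGAAA (or its reverse complement), and the pair of TGACG and ATTGG that corresponds to the X2 and Y boxes of class I promoters, ATTGG being CCAAT on the other strand.
H2-K1, chr17:34000348-34000597, reverse strand: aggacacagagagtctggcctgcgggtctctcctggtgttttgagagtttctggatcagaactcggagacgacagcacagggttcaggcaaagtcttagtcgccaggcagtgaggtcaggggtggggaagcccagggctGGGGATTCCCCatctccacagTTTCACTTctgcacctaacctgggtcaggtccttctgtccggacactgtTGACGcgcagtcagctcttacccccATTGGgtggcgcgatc
B2m, chr2:122147437-122147685, forward strand: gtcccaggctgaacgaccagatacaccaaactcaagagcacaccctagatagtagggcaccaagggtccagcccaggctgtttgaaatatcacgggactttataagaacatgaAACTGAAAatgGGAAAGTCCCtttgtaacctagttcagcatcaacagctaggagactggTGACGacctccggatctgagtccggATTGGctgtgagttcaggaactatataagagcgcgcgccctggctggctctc

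In H2-K1, H2-D1 and B2m exactly 20 bases lay between the X2 and Y letters. The stretches from the first to the last of these letters are set out here to show that spacing, which was noticed in the sequences and not sought beforehand.
H2-K1, chr17:34000359-34000388: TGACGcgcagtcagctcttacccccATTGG
H2-D1, chr17:35262993-35263022: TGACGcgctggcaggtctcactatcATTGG
B2m, chr2:122147609-122147638: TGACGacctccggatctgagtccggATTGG

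This pair with exactly 20 bases between, on either strand, was in 30 of 32851 RefSeq windows of 250 bases before a start (0.0913%). The single motifs were far more frequent, with TGACG in 17.8% of windows, CCAAT in 33.8% and the interferon regulatory factor core in 21.3%, each on both strands. The NF-kappaB consensus was in 3.9% of windows and in those of H2-K1, H2-D1 and B2m. It lay beside the interferon regulatory factor core in each, in the opposite order in B2m. These neighbouring pairs are shown because the heavy chains share them almost letter for letter.
H2-K1, chr17:34000430-34000458: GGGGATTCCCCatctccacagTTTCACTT
H2-D1, chr17:35262923-35262951: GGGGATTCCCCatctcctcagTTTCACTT
B2m, chr2:122147550-122147570: AACTGAAAatgGGAAAGTCCC

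Among the other 5 windows, those of Tap1 and Psmb9 held TGACG and CCAAT without that spacing, and that of Tapbp held CCAAT only. The windows of Psmb8 and Psmb10 held none of the 4 motifs. In GENCODE M21 the windows of Tap1, Psmb9, Tapbp, Psmb8 and H2-D1 lie wholly in annotated exons. A match describes letters and is not a measured binding site.

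**Figure D1:**
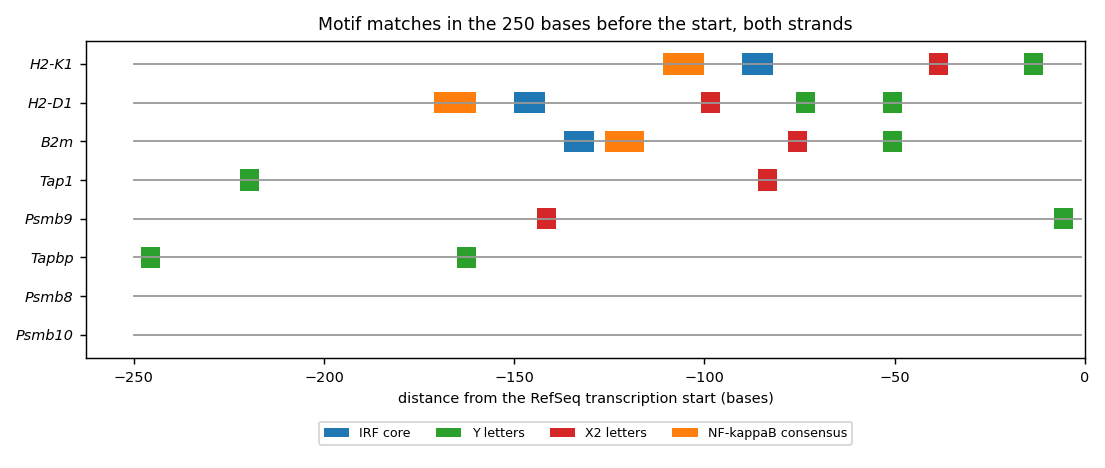
Positions of motif matches, in bases before the RefSeq transcription start (x axis), in the 8 genes that had an entry (rows). H2-K1, H2-D1 and B2m each hold all 4 motifs, with 20 bases between the X2 letters and the next Y letters, and the windows of Psmb8 and Psmb10 hold none of these 4.

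The deposited unit is TPM, a share of all transcripts that allows for the length of each gene, so levels of different genes compare per length. Read numbers are not kept in this unit, so sequencing depth is unknown and counting error cannot be given. Irf7 was 3.36 to 5.31 TPM in AML-WT-c-kit+, 22.3 to 32.3 in AML-WT-c-kit- and 5.97 to 12.8 in the labelled libraries. These were thus above every AML-WT-c-kit+ library although labelled IRF7-/-, and each direction given below rests on that label. The paper checked IRF7 in its WT and IRF7-/- leukemias by qRT-PCR and by Western blot, and reports it as verified. Exons outside the cassette can still give Irf7 reads, and a gene-level TPM does not tell these from reads of intact transcripts. Kit followed the sort, with 0.52 to 3.03 TPM in AML-WT-c-kit- and 50.7 to 85.7 TPM in the c-kit+ libraries. One column of the table, named "WT ckit+33", was taken as AML-WT-c-kit+ replicate 3. Summed TPM of 8 maturing neutrophil genes was 56720 to 110826 in AML-WT-c-kit+, 6149 to 30599 in AML-WT-c-kit- and 1603 to 2527 in the labelled libraries. S100a8, S100a9, Camp and Ngp made up most of it and rose in AML-WT-c-kit+ against AML-WT-c-kit- (by 2.77, 2.78, 3.98 and 2.98, and by 3.45, 3.52, 4.70 and 3.73 without AML-WT-c-kit- replicate 3), while Mmp8 of the same list was lower there, with means of 4.68 and 74.6 TPM (−3.79, adjusted p by limma = 0.000184), and Retnlg and Mmp9, at 9.91 against 53.0 and 56.9 against 121 TPM, did not pass. The top 10 genes by level held 13.1% to 17.3% of all TPM in AML-WT-c-kit+ and 9.39% to 10.3% elsewhere. A larger share for these leaves a smaller one for every other gene, the members included. In bulk RNA, fewer cells of a type and less RNA per cell cannot be told apart.

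All 10 genes were higher in the labelled libraries (AML-IRF7-/--c-kit+) than in AML-WT-c-kit+, by 0.50 to 1.11 on the log2 scale, and in none did the libraries of the 2 groups overlap. The comparison asks how genotype differs within c-kit+ cells. Each of the 10 passed an adjusted p under 0.05, by limma on log2(TPM + 1) with Benjamini-Hochberg adjustment over 13238 genes, and this is what "passed" means throughout. Over all these genes 31.9% were higher and 16.1% lower by that rule, and 39% were higher without overlap. Log2 fold changes on this scale understate changes of low genes. The median of the 10 was 0.84, against 0.12 for all genes tested, and relative to the latter the 10 were still higher by 0.38 (Tapbp) to 0.99 (Tap2). Where the log2 fold change also had to reach 1, 3 of the 10 qualified (Tap1, Tap2 and Psmb8), against 6.3% of all genes higher and 5.39% lower. After quantile normalization of the libraries the shares of all genes that passed were 24.6% higher and 20.1% lower. The 10 kept a positive difference in all 14 alternatives tried. Quantile normalization moved the median of all genes to 0.03. Leaving out the 8 maturing neutrophil genes and rescaling each library moved it to 0.01 and left 8 of 10 passed and 0 past both thresholds.

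Between the wild-type groups, 5 of the 10 genes were lower in AML-WT-c-kit+ than in AML-WT-c-kit- and the other 5 did not pass. This comparison asks how c-kit+ cells differ from c-kit- cells of the same leukemia. The genes that fell were H2-D1, Tap1, Tapbp, Psmb8 and Psmb10, by 0.44 to 0.94 on the log2 scale. Of 13261 genes tested, 27.6% were lower and 14% higher, and the members' median of −0.45 stood beside −0.08 for all genes. None of the 10 reached a log2 fold change of 1 in size, against 9.61% of all genes lower and 4.83% higher. Quantile normalization changed the split of all genes to 19.5% lower and 23% higher, and their median to 0.07. The fall of Tap1 was lost under that scaling (adjusted p = 0.0937), under median centring and with the neutrophil genes left out, and Tap2 then passed as higher.

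Against AML-WT-c-kit-, 6 of the 10 genes were higher in the labelled libraries and none was lower. Here genotype and c-kit differ together and cannot be told apart. H2-K1, B2m, Tap1, Tap2, Psmb8 and Psmb9 passed, against 30.7% of 13510 genes higher and 28.7% lower. Tap2 alone reached a log2 fold change of 1, which 8.4% of all genes had in that direction and 11.9% in the other. The members' median was 0.49, and that of all genes 0.03. The 3 comparisons share libraries in pairs, so their results are not independent of each other.

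**Figure D2:**
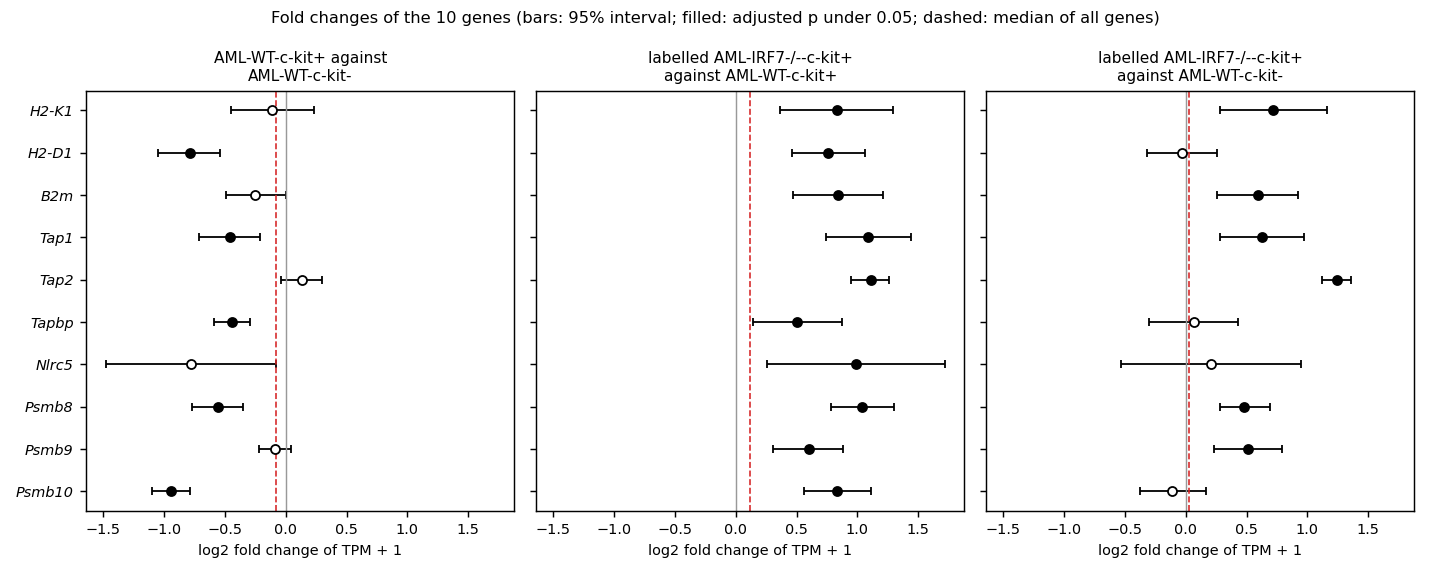
Log2 fold change of TPM + 1 (x axis) of the 10 genes (rows) in the 3 comparisons (panels), with 95% intervals and filled points for adjusted p under 0.05. All 10 points are filled and right of 0 in the middle panel, 5 are filled and left of 0 in the left panel, and 6 are filled and right of 0 in the right panel.

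The class I heavy chains and B2m were among the most abundant transcripts of these cells, and by TPM ranked 67 to 149 (H2-K1), 111 to 214 (H2-D1) and 24 to 88 (B2m) over the 9 libraries. H2-K1 was 1029, 1139 and 1326 TPM among AML-WT-c-kit- libraries 1, 2 and 3, then 1192, 1159 and 903 TPM among AML-WT-c-kit+ libraries, against 2138, 2261 and 1438 TPM among the labelled ones. The wild-type groups overlapped, and the labelled libraries lay above both. In the c-kit+ cells its log2 fold change was 0.83 (standard error, SE, 0.19, adjusted p by limma 0.0128). Against AML-WT-c-kit- it was 0.72 (SE 0.18, adjusted p by limma 0.0138).

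H2-D1, the other classical heavy chain of this strain, was 1162, 1155 and 1359 TPM among AML-WT-c-kit- libraries, then 767, 729 and 627 TPM among AML-WT-c-kit+ libraries, against 1302, 1301 and 1012 TPM among the labelled ones. Here AML-WT-c-kit+ stood alone, below every other library. The rise between the c-kit+ groups was 0.76 (SE 0.13, adjusted p by limma 0.00318) and the difference between the wild-type groups −0.79 (SE 0.11, adjusted p by limma 0.00136). For the labelled libraries against AML-WT-c-kit- the 95% interval of the log2 difference ran from −0.32 to 0.26 (adjusted p by limma = 0.846).

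The ratio of the heavy chains to each other did not overlap between c-kit- and c-kit+ libraries. The TPM of H2-K1 over that of H2-D1 was 0.885 to 0.986 in AML-WT-c-kit-, 1.44 to 1.59 in AML-WT-c-kit+ and 1.42 to 1.74 in the labelled libraries. A ratio within a library does not depend on the library's total. Both c-kit+ groups lay above the c-kit- group without overlap (exact two-sided permutation p = 0.1, the smallest that 3 against 3 allow, and 0.15 adjusted over 6 tests). The ratio was chosen after the values were seen, and it shows unequal change only.

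B2m, whose product every class I heavy chain needs, had the highest level of the 10. It was 2167, 2270 and 2352 TPM among AML-WT-c-kit- libraries, then 2056, 1984 and 1692 TPM among AML-WT-c-kit+ libraries, against 4027, 3577 and 2748 TPM among the labelled ones. Every labelled library was above the other 6, and every AML-WT-c-kit+ library below the c-kit- ones. The log2 fold change was 0.84 between the c-kit+ groups (SE 0.16, adjusted p by limma 0.00514) and 0.59 against AML-WT-c-kit- (SE 0.14, adjusted p by limma 0.00966). The latter missed the threshold after quantile normalization (0.36, adjusted p by limma = 0.0522). For the wild-type pair it was −0.25, which did not pass (adjusted p by limma = 0.096).

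The genes of the peptide pump had the largest log2 differences of the 10 between the c-kit+ groups, with mean TPM 2.16-fold (Tap1) and 2.17-fold (Tap2) higher in the labelled libraries. Tap1 was 73.8, 84.4 and 89.5 TPM among AML-WT-c-kit- libraries, then 67.0, 58.7 and 53.9 TPM among AML-WT-c-kit+ libraries, against 143, 143 and 102 TPM among the labelled ones. Its 3 groups did not overlap. The log2 fold change was 1.09 between the c-kit+ groups (SE 0.15, adjusted p by limma 0.00157), −0.46 between the wild-type groups (adjusted p by limma = 0.0133) and 0.63 for the labelled libraries against AML-WT-c-kit- (adjusted p by limma = 0.00877).

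Tap2 had the narrowest spread in the labelled libraries, at 178, 176 and 176 TPM. AML-WT-c-kit- libraries had 71.5, 77.4 and 74.2 TPM and AML-WT-c-kit+ libraries 77.4, 88.8 and 78.6 TPM, so the wild-type groups lay next to each other and far below. The rise was 1.11 between the c-kit+ groups (SE 0.06, adjusted p by limma 7.48e-05) and 1.24 against AML-WT-c-kit- (SE 0.05, adjusted p by limma 8.25e-06). By adjusted p it ranked 143 of 13238 genes in the first of these. The wild-type groups were close, and its log2 fold change of 0.13 did not pass (adjusted p by limma = 0.198), though 3 scalings gave 0.24 to 0.32 and a pass. Tap1 over Tap2 was 1.03 to 1.21 in AML-WT-c-kit-, 0.661 to 0.866 in AML-WT-c-kit+ and 0.582 to 0.809 in the labelled libraries, below AML-WT-c-kit- in every c-kit+ library (exact two-sided permutation p = 0.1 for each group, chosen after the values were seen).

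Tapbp, encoding tapasin, which bridges the pump and the empty class I molecule, was 142, 140 and 153 TPM among AML-WT-c-kit- libraries, then 107, 102 and 112 TPM among AML-WT-c-kit+ libraries, against 196, 126 and 141 TPM among the labelled ones. AML-WT-c-kit+ was lowest without overlap, and labelled replicate 1 stood above the other labelled libraries. The difference was −0.44 between the wild-type groups (SE 0.06, adjusted p by limma 0.0017). Between the c-kit+ groups it was 0.50 (SE 0.15, adjusted p by limma 0.0335), and this pass was lost in 8 of 14 alternatives, with adjusted p from 0.0158 to 0.092. Without labelled replicate 3 it was 0.55 (adjusted p by limma = 0.057), and without AML-WT-c-kit+ replicate 1, 2 or 3 the adjusted p was 0.0817, 0.0837 or 0.0653. Part of Tapbp overlaps exons of Zbtb22 on the same strand in GENCODE M21, a gene listed at 29.3 to 40.1 TPM.

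Nlrc5, the class I transactivator, had the lowest level of the 10. It was 12.8, 20.4 and 24.2 TPM among AML-WT-c-kit- libraries, then 11.2, 13.8 and 7.12 TPM among AML-WT-c-kit+ libraries, against 23.1, 29.9 and 14.5 TPM among the labelled ones. The c-kit- libraries overlapped both other groups. Its log2 fold change between the c-kit+ groups was 0.99 with a wide SE of 0.31 (adjusted p by limma = 0.0348). It lost the threshold in 6 of 14 alternatives, among them without AML-WT-c-kit+ replicate 1 or 3 (adjusted p = 0.0723 or 0.0921) and without labelled replicate 1 or 2 (adjusted p = 0.0923 or 0.0921). The wild-type groups differed by −0.78, which did not pass (adjusted p by limma = 0.0725) but did without AML-WT-c-kit- replicate 1 (−1.03, adjusted p by limma = 0.0303).

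Of the inducible proteasome subunits, all 3 were higher in the labelled libraries than in AML-WT-c-kit+, and Psmb8 and Psmb10 were lower in AML-WT-c-kit+ than in AML-WT-c-kit-. Psmb8, the chymotrypsin-like subunit of the immunoproteasome, was 345, 341 and 321 TPM among AML-WT-c-kit- libraries, then 204, 254 and 225 TPM among AML-WT-c-kit+ libraries, against 495, 504 and 413 TPM among the labelled ones. The 3 groups did not overlap. Its log2 fold change was 1.04 between the c-kit+ groups (SE 0.11, adjusted p by limma 0.000606), −0.56 between the wild-type groups (adjusted p by limma = 0.00267) and 0.48 against AML-WT-c-kit- (adjusted p by limma = 0.00298).

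Psmb9, which shares its 5′ end with Tap1, was 104, 99.0 and 102 TPM among AML-WT-c-kit- libraries, then 99.2, 91.8 and 95.3 TPM among AML-WT-c-kit+ libraries, against 155, 164 and 119 TPM among the labelled ones. The wild-type groups overlapped, with a log2 difference of −0.09 and a 95% interval from −0.22 to 0.04. The labelled libraries were higher than AML-WT-c-kit+ by 0.60 (SE 0.12, adjusted p by limma 0.00694) and than AML-WT-c-kit- by 0.51 (adjusted p by limma = 0.00915). Although Tap1 fell between the wild-type groups in the main comparison, its neighbour Psmb9 did not pass there.

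Psmb10, the inducible trypsin-like subunit, showed the largest fall of the 10 between the wild-type groups. It was 151, 147 and 139 TPM among AML-WT-c-kit- libraries, then 71.4, 79.7 and 74.6 TPM among AML-WT-c-kit+ libraries, against 148, 148 and 112 TPM among the labelled ones. AML-WT-c-kit+ stood alone at about 0.517 of the c-kit- mean, with a log2 difference of −0.94 (SE 0.06, adjusted p by limma 8.08e-05). Between the c-kit+ groups Psmb10 rose by 0.83 (SE 0.12, adjusted p by limma 0.00178). For the labelled libraries against AML-WT-c-kit- the 95% interval ran from −0.38 to 0.17.

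**Figure D3:**
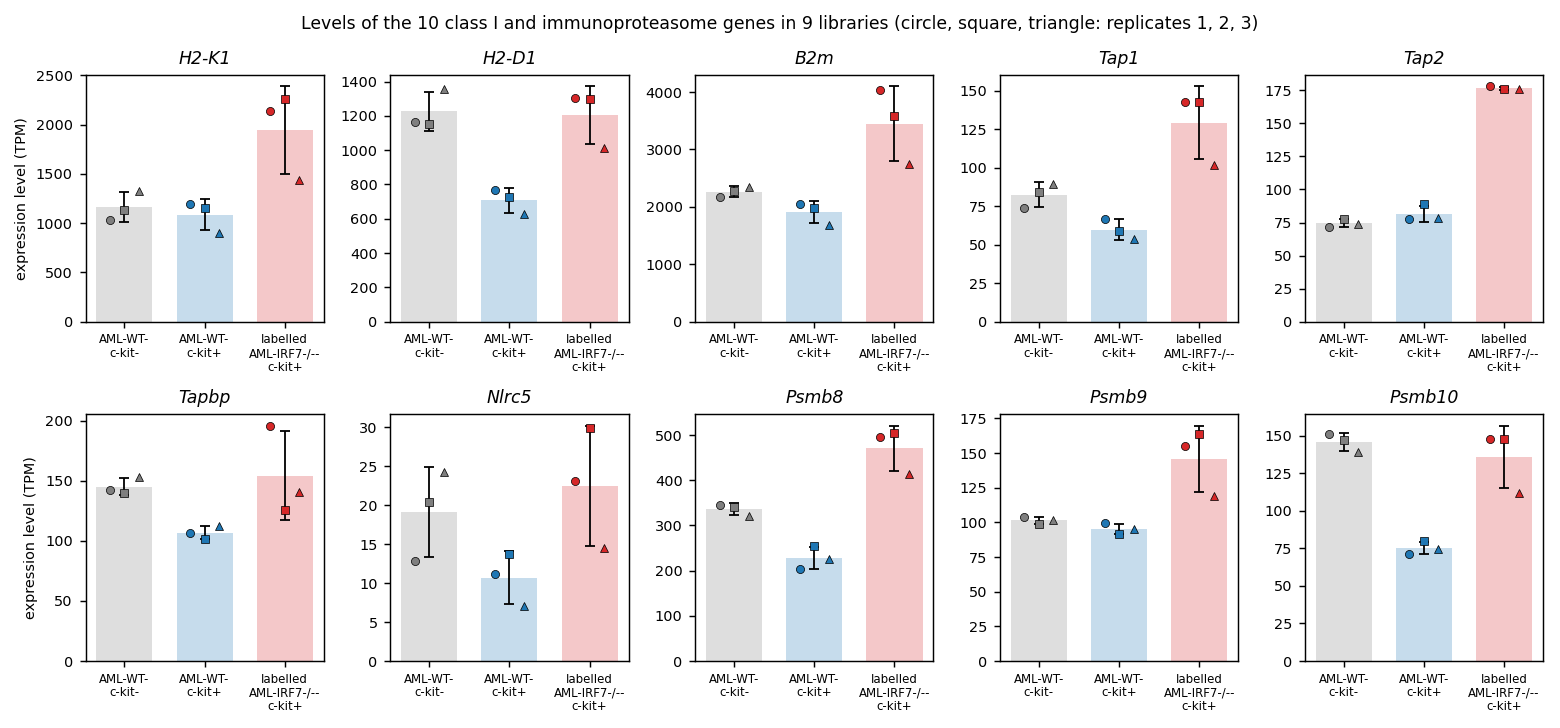
Level of each of the 10 genes (panels) in TPM (y axis, from 0) in the 3 groups (x axis), with a point per library, bars at the mean and error bars of 1 SD (n = 3). In every panel the red labelled libraries lie above the blue AML-WT-c-kit+ libraries, while H2-D1, Tapbp, Nlrc5 and Psmb10 overlap between the grey AML-WT-c-kit- and the labelled libraries.

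In order of mean level, 8 of the 10 genes were highest in the labelled libraries and 9 of 10 lowest in AML-WT-c-kit+. The exceptions at the top were H2-D1 and Psmb10, with AML-WT-c-kit- first, and at the bottom Tap2, with AML-WT-c-kit- last. Without the neutrophil genes the count lowest in AML-WT-c-kit+ became 7. Over all genes tested, 39% were higher without overlap in the labelled libraries than in AML-WT-c-kit+. Between the wild-type groups 34.7% were lower without overlap in AML-WT-c-kit+. The share of all genes with the members' order of means was not counted. The labelled libraries did not separate from AML-WT-c-kit- in H2-D1, Tapbp, Nlrc5 and Psmb10, nor AML-WT-c-kit+ from AML-WT-c-kit- in H2-K1, B2m, Tap2, Nlrc5 and Psmb9, in that these pairs did not pass. Within the labelled group replicate 3 was the lowest library in 9 of the 10 genes, and how often it was lowest over all genes was not counted. Over the 9 libraries, deviations from the group mean were correlated between H2-K1 and H2-D1 (r = 0.97) and between H2-K1 and Nlrc5 (r = 0.92), while for H2-K1 with Tap2 r was 0.23 and with Tapbp 0.11. For H2-K1, r was as high with Tap1 (0.95) and B2m (0.91), and for Nlrc5 it was 0.75 with B2m, 0.51 with Psmb9 and 0.45 with Psmb8. These pairs were not chosen beforehand and single out no link between particular genes. The r values describe libraries that share one total each, and the heavy chains may share reads.

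The constitutive catalytic subunits, whose places the inducible ones take, had smaller fold changes. Between the c-kit+ groups Psmb5 was higher by 0.43, Psmb6 by 0.34 and Psmb7 by 0.29 on the log2 scale, and all 3 passed (adjusted p by limma = 0.00408, 0.00947 and 0.00378). The TPM ratio of Psmb8 to Psmb5 was 2.19, 2.18 and 2.23 in AML-WT-c-kit-, 1.48, 1.59 and 1.58 in AML-WT-c-kit+, and 2.39, 2.72 and 2.05 in the labelled libraries. AML-WT-c-kit+ was lowest without overlap. The ratio of Psmb10 to Psmb7 was 1.12, 1.04 and 1.08 in AML-WT-c-kit-, 0.602, 0.678 and 0.625 in AML-WT-c-kit+, and 0.973, 1.05 and 0.774 in the labelled libraries, again lowest in AML-WT-c-kit+. The ratio of Psmb9 to Psmb6 overlapped between all groups, with means of 0.549, 0.588 and 0.71. Exact two-sided permutation tests gave p = 0.1 for the Psmb8 and Psmb10 ratios in both comparisons with AML-WT-c-kit+, the smallest that 3 libraries against 3 allow, and an adjusted p of 0.225 over 9 tests. The design cannot reach 0.05 here.

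**Figure D4:**
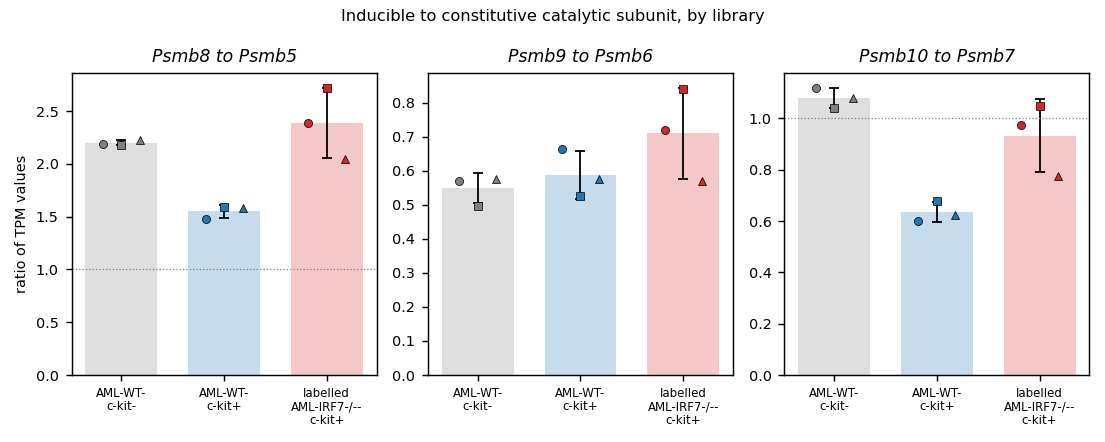
Ratio of the TPM of each inducible catalytic subunit to that of its constitutive counterpart (y axis, from 0, dotted line at 1) by group (x axis), with a point per library, bars at the mean and error bars of 1 SD (n = 3). AML-WT-c-kit+ is lowest without overlap for Psmb8 to Psmb5 and Psmb10 to Psmb7, and the groups overlap for Psmb9 to Psmb6.

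The rest of the proteasome was also slightly higher in the labelled libraries than in AML-WT-c-kit+. For this and the lists below, the shares of all genes that passed were 31.9% higher and 16.1% lower between the c-kit+ groups. They were 14% and 27.6% between the wild-type groups, and 30.7% and 28.7% for the labelled libraries against AML-WT-c-kit-. Of the other 20S core subunits 11 of 11 passed as higher, with a median log2 fold change of 0.37, and of the 19S cap subunits 16 of 17, with a median of 0.38. Psme2, a subunit of the interferon-inducible activator PA28, rose by 0.81 (adjusted p by limma = 0.0129), while its partner Psme1 had 0.05 and did not pass (adjusted p by limma = 0.685). In all, 7 of 9 activators and assembly chaperones were higher. Of the wild-type pair, AML-WT-c-kit+ had 6 of the 11 core and 2 of the 17 cap subunits lower, the cap share being below the 27.6% of all genes. Against AML-WT-c-kit-, Psmg1, an assembly chaperone of the core, was higher in the labelled libraries by 1.43 (adjusted p by limma = 3.62e-05). Psmg1 was also higher by 0.76 between the c-kit+ groups and by 0.67 in AML-WT-c-kit+ against AML-WT-c-kit- (adjusted p by limma = 0.00195 and 0.00665). For the labelled libraries against AML-WT-c-kit-, 8 of 11 core subunits were higher and 1 lower, and 13 of 17 cap subunits higher and 1 lower. Of the 9 activators and assembly chaperones 4 were higher and 2 lower.

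Among genes that trim and load peptides, 6 of 12 were higher in the labelled libraries than in AML-WT-c-kit+ and none lower, with a median of 0.25. Against AML-WT-c-kit- 5 were higher and 1 lower. Calr, encoding the chaperone calreticulin of the loading complex, rose by 1.28 there, from a mean of 650 to 1588 TPM (adjusted p by limma = 5.8e-05). It was also higher by 0.75 between the c-kit+ groups and by 0.53 in AML-WT-c-kit+ against AML-WT-c-kit- (adjusted p by limma = 0.00227 and 0.00277). Thop1, a peptidase that degrades peptides in the cytosol, rose by 1.23 against AML-WT-c-kit- (adjusted p by limma = 0.000204). Its difference was 0.81 between the c-kit+ groups (adjusted p by limma = 0.00436) and 0.42 between the wild-type groups, which did not pass (adjusted p by limma = 0.0843). In the wild-type comparison 2 of 12 were higher and 1 lower.

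The nonclassical and class I-like heavy chains were mixed in direction. Of 20 such genes 14 were tested between the c-kit+ groups, where 4 were higher and 1 lower, with a median of 0.48 beside 0.12 for all genes. The share that was higher was near the 31.9% of all genes. H2-T24 was 90.3, 46.1 and 52.8 TPM in the labelled libraries against 25.7 to 28.4 TPM in AML-WT-c-kit+ (1.15, adjusted p by limma = 0.00731). Cd1d1, which presents lipids to NKT cells, rose by 1.09 (adjusted p by limma = 0.00335). H2-T23, the mouse Qa-1 heavy chain that NK cells read, had 0.16 and did not pass (adjusted p by limma = 0.276). In both c-kit+ groups H2-T23 was lower than in AML-WT-c-kit-, by −1.22 in AML-WT-c-kit+ and −1.06 in the labelled libraries (adjusted p by limma = 2.61e-05 and 0.000368).

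Between the wild-type groups 5 of 13 nonclassical and class I-like genes were lower and none higher. Fcgrt, the neonatal Fc receptor's heavy chain, fell by 3.16 (adjusted p by limma = 7.27e-05) and H2-M3, which presents formylated peptides, by 1.03 (adjusted p by limma = 0.00195). H2-M3 is the only other H2 gene whose window held the X2 and Y letters with exactly 20 bases between. Against AML-WT-c-kit-, H2-Q4 was higher in the labelled libraries by 1.24 (adjusted p by limma = 0.00898), and Fcgrt lower by −3.99 (adjusted p by limma = 9.82e-06). H2-Q7 and H2-Q6, singled out after their values were seen, reached 189 and 122 TPM in labelled replicate 2, against at most 52.4 and 41.8 TPM in every other library. Neither passed in any comparison, and reads shared among the Q genes make their split uncertain.

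Of 20 regulators of class I transcription, 5 were higher and 2 lower between the c-kit+ groups, with a median of 0.05 beside 0.12 for all genes. Both shares were below the 31.9% higher and 16.1% lower of all genes. The largest rises, named after their values were seen, were those of Ifngr1, the ligand-binding subunit of the interferon-gamma receptor, and Irf9, which carries type I interferon signals to DNA. Ifngr1 was 464, 397 and 468 TPM in the labelled libraries against 222 to 237 TPM in AML-WT-c-kit+ (0.94, adjusted p by limma = 0.000246). Irf9 was 79.7, 36.0 and 42.2 TPM against 24.7 to 27.7 TPM (0.91, adjusted p by limma = 0.0316), and missed the threshold in 5 of 14 alternatives, among them without AML-WT-c-kit+ replicate 1, 2 or 3 (adjusted p = 0.0806, 0.0605 or 0.0829). Irf1, an activator of class I genes, rose by 0.33 (adjusted p by limma = 0.0492), a pass lost in 10 of 14 alternatives, among them without labelled replicate 1 or 2 (adjusted p = 0.128 or 0.132) and AML-WT-c-kit+ replicate 1 or 3 (adjusted p = 0.0697 or 0.121). Rfx5, a subunit of the complex that binds the X box, had 0.26 and did not pass (adjusted p by limma = 0.077). Irf8, a myeloid factor of the interferon regulatory family, was lower by −1.59, at 28.6, 65.5 and 31.1 TPM against 93.3, 132 and 135 TPM (adjusted p by limma = 0.007). Of 3 genes of Polycomb repressive complex 2, which can silence class I genes, none passed between the c-kit+ groups (0 to 0.10, median 0). In the wild-type comparison 1 was higher and 1 lower, and 2 were higher and 1 lower in the labelled libraries than in AML-WT-c-kit-.

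Of the same 20 regulators, 10 fell and 2 rose in the wild-type c-kit+ libraries, and the largest falls were Irf8 (−2.08), the interferon-gamma receptor subunit Ifngr2 (−1.85) and the type I interferon receptor subunit Ifnar1 (−1.47), with limma adjusted p of 0.00017, 5.4e-05 and 3.16e-05. Ifngr1, the partner of Ifngr2, had a mean of 231 TPM in both wild-type groups, a difference of 0.18 under quantile normalization (adjusted p by limma = 0.0336). Rfx5 went the other way, by 0.38 (adjusted p by limma = 0.0311), and missed the threshold in 6 of 14 alternatives, among them without any one AML-WT-c-kit+ library (adjusted p from 0.0559 to 0.0884) and without AML-WT-c-kit- replicate 1 or 3 (adjusted p = 0.0596 or 0.0594). For the labelled libraries against AML-WT-c-kit-, 9 fell and 3 rose, with Irf8 at −3.66, Ifngr2 at −1.45 and Nfkb1, an NF-kappaB subunit, at −1.37 (adjusted p by limma = 0.000109, 0.000187 and 4.69e-05).

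Other interferon-stimulated genes had a larger median difference between the c-kit+ groups than the 10 members, which was not tested. Of 19 tested, 16 were higher, 15 of them also past the fold threshold, with a median of 1.52. Over all genes 31.9% were higher, 6.3% past the fold threshold too, and the median was 0.12. Usp18, Oasl1, Ifit1, Rsad2 and Gbp6 were under 1 TPM in every AML-WT-c-kit+ library. They met the filter of at least 1 TPM in 3 libraries only through the labelled ones, so they could hardly have passed as lower. The count and the median rest partly on them. Usp18, which restrains interferon signalling, was 45.0, 6.24 and 10.1 TPM in the labelled libraries against 0.63 to 0.92 TPM in AML-WT-c-kit+ (3.11, adjusted p by limma = 0.00729). Oasl2 and Oasl1, antiviral proteins, rose by 3.00 and 2.81 (adjusted p by limma = 0.0137 and 0.0022). Oasl2 was 73.8, 10.6 and 9.53 TPM in the labelled libraries, and without replicate 1 its log2 fold change was 2.08 (adjusted p by limma = 0.00103). Labelled replicate 1 was the highest of its group in 17 of these 19 genes, whereas among the members replicates 1 and 2 were each highest in 5 of 10. How often each was highest over all genes was not counted. Between the wild-type groups 8 of 17 interferon-stimulated genes fell and 2 rose, with the antiviral GTPases Mx1 and Mx2 at −3.35 and −2.42 and Usp18 at −1.85 (adjusted p by limma = 1.83e-05, 0.000156 and 0.00109). Mx2 and Usp18 met the filter there only through the AML-WT-c-kit- libraries. Against AML-WT-c-kit-, 11 of 21 were higher and 2 lower in the labelled libraries. Gbp6, a guanylate-binding protein, and Ifit1, which binds foreign RNA, rose by 2.28 and 2.19 (adjusted p by limma = 0.00236 and 0.0303), and Mx1 had −2.73 (adjusted p by limma = 0.00132). Gbp6 met the filter there only through the labelled libraries. Ifit1, at 0.58, 0.57 and 1.22 TPM in AML-WT-c-kit-, needed the labelled libraries to meet it. So did Oasl1 (0.84, 1.13 and 1.99 TPM) and Rsad2 (1.11, 0.59 and 1.71 TPM). Such genes could hardly have passed as lower, which limits the count of those higher. Ifit1 was 25.1, 2.70 and 4.43 TPM in the labelled libraries, and without replicate 1 its log2 fold change was 1.34 (adjusted p by limma = 0.00925). It missed the threshold without AML-WT-c-kit- replicate 1, 2 or 3 (adjusted p = 0.0753, 0.0788 or 0.0541).

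MHC class II genes, which have a transactivator of their own in Ciita, mostly went the other way to class I in the comparisons with the labelled libraries, though not between the wild-type groups. Of 7, 5 were lower and 2 higher in the labelled libraries than in AML-WT-c-kit+. Cd74, the invariant chain, was 2.22, 4.24 and 2.84 TPM against 158, 136 and 137 TPM (−5.17, adjusted p by limma = 1.08e-05). The antigen-binding chains H2-Eb1 and H2-Aa were lower by −4.61 and −4.56 (adjusted p by limma = 1.66e-05 and 8.77e-06). Ciita was 0.03, 0.07 and 0.02 TPM in the labelled libraries and 1.57 to 2.23 TPM in AML-WT-c-kit+ (−1.43, adjusted p by limma = 0.000736). It met the filter of at least 1 TPM in 3 libraries only through AML-WT-c-kit+, so it could hardly have passed as higher. H2-DMa, which edits class II peptides, was higher, at 125 to 130 TPM against 30.4 to 45.6 TPM (1.67, adjusted p by limma = 0.000339). In the wild-type comparison 3 of the 7 class II genes fell and none rose, led by H2-DMa at −1.94, H2-DMb1 at −1.06 and Cd74 at −1.01 (adjusted p by limma = 0.000141, 0.000161 and 0.0202), the same direction as the class I genes that passed there. Cd74 missed the threshold without AML-WT-c-kit+ replicate 2 or 3 (adjusted p = 0.0571 or 0.0587). All 7 were lower in the labelled libraries than in AML-WT-c-kit-, with Cd74 at −6.18, H2-Aa at −5.28 and H2-Eb1 at −5.16 (adjusted p by limma = 1.41e-05, 1.78e-05 and 3.05e-05). Ciita, counted among these, met the filter there only through the AML-WT-c-kit- libraries.

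**Figure D5:**
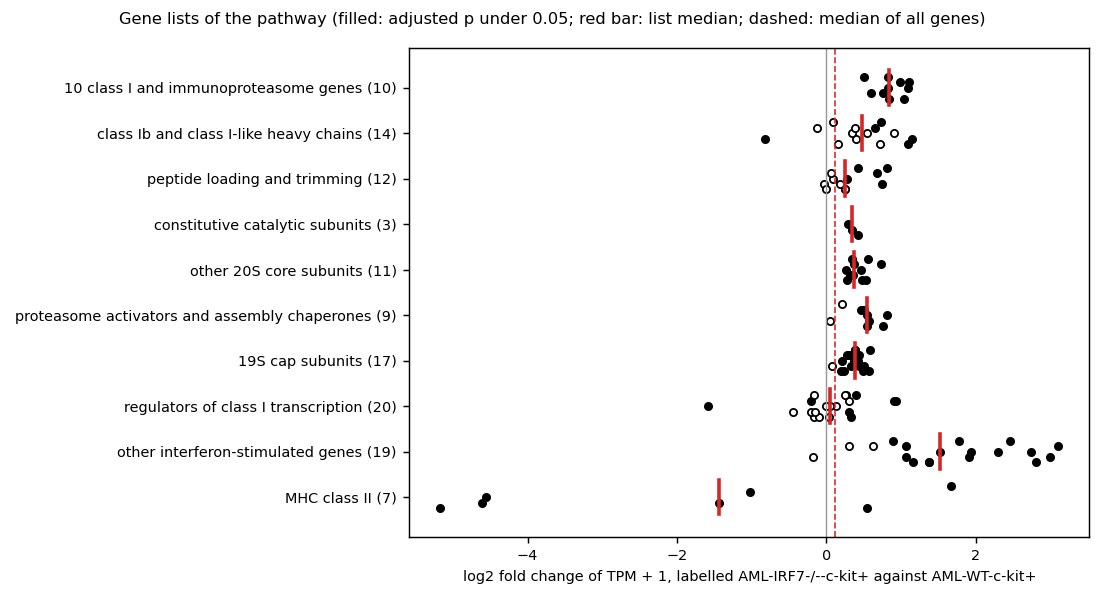
Log2 fold change of TPM + 1 of the labelled libraries against AML-WT-c-kit+ (x axis) for every tested gene of 10 lists (rows, number tested in brackets), filled where adjusted p was under 0.05, with the list median as a red bar. The 10 class I and immunoproteasome genes lie between 0.50 and 1.11, the interferon-stimulated genes reach 3.11, and class II genes spread from −5.17 to 1.67.

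Markers of lymphocytes, which carry much class I, were near 0. Summed TPM of 5 T cell genes was 0.10 to 1.89 and of 4 NK cell genes 0.09 to 0.78 over the 9 libraries, with Trac at 0 throughout AML-WT-c-kit+, Gzma at 0 throughout AML-WT-c-kit- and Ncr1 and Eomes at 0 throughout the labelled group. Summed TPM of 5 B cell genes was 26.4 to 38.1 and did not separate the groups. Dendritic cell genes summed to 32.9 to 44.6 TPM in AML-WT-c-kit-, 3.62 to 6.73 in AML-WT-c-kit+ and 0.32 to 0.67 in the labelled libraries, and 4 monocyte genes to 4245 to 4982, 2075 to 2309 and 2318 to 2921 TPM. The summed maturing neutrophil level, given above, also did not overlap between any of the 3 groups. Most of the monocyte sum was Ly6c2, with means of 1994 TPM in AML-WT-c-kit+ and 2455 in the labelled libraries. Between these groups 1 of the 4 monocyte genes passed as higher and 2 as lower, with a median of −0.23. Those lower were Csf1r (means of 50.9 and 28.9 TPM) and Mpeg1 (154 and 67.5 TPM). Tissue macrophage genes summed to 65.0 to 99.6 TPM in AML-WT-c-kit-, 30.4 to 50.6 in AML-WT-c-kit+ and 55.9 to 78.6 in the labelled libraries, so like the members they were higher in the last than in AML-WT-c-kit+ without overlap. Most of that sum was Adgre1 (0.95 between the c-kit+ groups, adjusted p by limma = 0.00892), while C1qa, C1qb and C1qc of the same list were lower (−0.66, −0.65 and −0.87, adjusted p by limma = 0.0372, 0.0475 and 0.0485), passes lost in 6, 5 and 6 of 13 alternatives, for each gene without labelled replicate 2 or 3 or AML-WT-c-kit+ replicate 3 among others (adjusted p up to 0.137). Endothelial and stromal genes summed to 44.6 to 59.8, 17 to 30.8 and 32.3 to 56.2 TPM in the same order of groups. That sum was mostly Lepr (0.85, adjusted p by limma = 0.0385), which missed the threshold in 8 of 14 alternatives, among them without labelled replicate 1 or 3 (adjusted p = 0.105 or 0.0844) or AML-WT-c-kit+ replicate 2 or 3 (adjusted p = 0.0844 or 0.103), with Cxcl12 at 0.97 (adjusted p by limma = 0.0056) and the defining genes Cdh5 and Kdr at no more than 0.24 and 0.06 TPM in any library. Cxcl12, under 1 TPM in every AML-WT-c-kit+ library, met the filter only through the labelled ones. Erythroid genes summed to 2.70 to 10.1 TPM over all libraries. The part of these cell types in the class I differences was not tested. With the maturing neutrophil genes left out, the members' median between the c-kit+ groups was 0.71 in place of 0.84.

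By pattern over the 9 libraries, the genes nearest to the 10 members were Gbp3, Mrps16, Ormdl2, Smim10l1 and Dapp1. Likeness was the median over the members of Pearson's r of log2(TPM + 1), among 10274 genes with a mean of at least 5 TPM, and was 0.907, 0.897, 0.881, 0.879 and 0.878. Libraries of one group share their group's level, so these values depend on the 3 group means. Gbp3, an interferon-inducible guanylate-binding protein, was 20.4, 21.6 and 21.0 TPM among AML-WT-c-kit- libraries, then 13.6, 20.7 and 15.6 TPM among AML-WT-c-kit+ libraries, against 54.2, 52.9 and 40.8 TPM among the labelled ones.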

How the data were processed

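The 9 bulk libraries were mapped to groups by GEO's titles, and none was left out. The authors deposited 1 table of TPM values for 55536 genes, each library summing to between 987468 and 992231. The paper describes a microarray, whereas the labels name RNA-seq with an unstranded kit. Aligner and genome build are not given in the sources used here. Coordinates are those of GENCODE M21 on GRCm38, matched by gene identifier, and promoters those of RefSeq on GRCm38.p6.

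Comparisons used the 6 libraries of the groups concerned, in limma (version 3.58.1, R 4.3.3; lmFit, eBayes with trend) on log2(TPM + 1), among genes with at least 1 TPM in 3 or more libraries. All 10 genes met this in every comparison. Adjustment was by Benjamini-Hochberg over all genes tested. Ratios were tested by exact two-sided permutation. The sample titles link replicates across groups by a number only. Deviations of same-numbered libraries correlated between −0.07 and 0.24, over 0.1 in 1 of 9 pairs. With 3 libraries a group these values cannot show whether c-kit- and c-kit+ cells came from the same mice. The fit was run on simulated data with independent noise and with changes larger than any of the members' changes. That run does not show how well changes of the members' size are found.

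The members and lists were chosen with earlier results of these data known. Named beside the members were the constitutive catalytic subunits, Psme1, Psme2, Irf1, Rfx5, H2-T23 and Ciita, and per list and comparison at most 3 genes with the largest change past both thresholds, no overlap and, in the higher group, 5 TPM or more on average. A further gene under this rule is not reported here. Alternatives were quantile normalization, median centring, a pseudocount of 0.1, no filter or one of 5 TPM, a single fit of the 9 libraries, a block for replicate number, and each library left out. Leaving out 8 neutrophil genes and the H2-K1 to H2-D1 and Tap1 to Tap2 ratios were chosen after seeing the data, as were the alternatives for genes other than the members, Irf7 and Kit. Python 3.11.15, pandas 2.3.3 and matplotlib 3.10.9 read sequences and drew figures.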

Additional observations from a re-analysis of the deposited data

How the results depend on the processing

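The 10 genes were higher in the labelled libraries than in AML-WT-c-kit+ in every alternative, and 8 of them kept an adjusted p under 0.05 in all 14 (limma). Tapbp and Nlrc5 did not. Past both thresholds 3 genes became 1 under quantile normalization, 0 with the neutrophil genes left out, and 2 to 5 with a library left out, the 5 without labelled replicate 3. Between the wild-type groups the members that passed as higher went from 0 to 1 (Tap2) under quantile normalization, median centring and without the neutrophil genes, and those past both thresholds lower were 0 to 1 with a library left out. Of the pathway lists, 8 genes higher between the wild-type groups became 5 with no filter, 16 under quantile normalization, 15 under median centring and 4 to 6 with a library left out, and 39 lower became 25 under quantile normalization. The 8 lower between the c-kit+ groups were 5 to 8 with a library left out.

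Irf7 between the c-kit+ groups missed the threshold with no filter (0.89), under quantile normalization (0.80) and without the neutrophil genes (0.79), and ran from 0.62 to 1.12 with a library left out. Kit missed it with all 9 libraries in one fit (0.58, limma adjusted p = 0.136). Differences that had not passed changed sign: between the wild-type groups Psmb9 under quantile normalization (0.10), median centring (0.07) and without the neutrophil genes (0.02), and H2-K1 under median centring (0.05), without the neutrophil genes (0, rounded) and without AML-WT-c-kit+ replicate 3 (0.02, within −0.19 to 0.02 over the libraries left out). For the labelled libraries against AML-WT-c-kit-, H2-D1 did so under median centring (0.05) and, with a library left out, ran from −0.09 to 0.09. Nlrc5 then ran from −0.04 to 0.48, Tapbp from −0.12 to 0.20 and Psmb10 from −0.18 to 0.02. The cause of these changes was not tested. With the replicate number as a block, 10, 5 and 6 members passed in the 3 comparisons, as without it, and no call of a member changed. For 46 other named genes the same alternatives gave 1599 of 1760 unchanged calls, with 106 lost, 34 gained and 21 of changed sign. A pseudocount of 0.1 enlarged the changes of low genes, between the c-kit+ groups to −3.78 for Ciita, 4.12 for Oasl1, 4.01 for Usp18, 2.45 for Cxcl12 and −5.41 for H2-Eb1, between the wild-type groups to −3.29 for Mx2 and −2.64 for Usp18, and against AML-WT-c-kit- to 3.70 for Gbp6, 3.02 for Ifit1 and −5.97 for H2-Eb1. Precision rests on 3 libraries a group, since TPM keep no depth.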
